A study of Homo sapiens with 21 samples.

Results

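The 10 genes described here, APOA1, APOA2, APOA4, APOA5, APOB, APOC1, APOC3, APOE, APOH and APOM, encode plasma apolipoproteins. They were chosen by symbol, with no measured value in the rule but with earlier results of these data known, from the 37637 features of a table of raw read counts, and all 10 passed the filter on low counts that kept 17951 features for testing. The cells were HepG2, a human hepatocellular carcinoma line that keeps much of the secretory programme of hepatocytes. Every group, the untreated control included, was washed and then held for 24 h in serum-free DMEM, which carried caffeine at 0.01, 0.1, 1, 10, 100 or 1000 µM in the 6 treated groups. Each of the 7 groups had 3 cultures, described by the submitters as biological replicates, and each culture gave 1 poly(dT)-purified RNA library. All cultures were of 1 tumour-derived line, and serum, a source of lipoproteins, was absent from the control medium too.

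Apolipoproteins are the protein part of plasma lipoproteins: they hold lipid particles together, serve as ligands for receptors and switch the enzymes that break down or remodel the lipid. The liver makes most of them. APOB is the backbone of very-low-density and low-density lipoprotein, APOA1 is the main protein of high-density lipoprotein, and the smaller members move between particles.

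The libraries held 23502519 to 44815552 counts. They fell into 3 sets by the levels of their mitochondrial mRNAs relative to each other. The overall mitochondrial share of a library was not used to form the sets. Set A held 11 libraries: all of control, 0.01 µM and 0.1 µM, and the first 2 of 1 µM. Set B held 7: library 3 of 1 µM, all of 10 µM, library 2 of 100 µM and libraries 1 and 2 of 1000 µM. Set C held libraries 1 and 3 of 100 µM plus library 3 of 1000 µM. The mitochondrial share of counts spanned 9.95% to 14.2% (set A), 4.72% to 4.94% (set B) and 11.8% to 12.8% (set C). Since no control library lay in set B or C, and every library at 10, 100 and 1000 µM did, the set and the dose cannot be told apart in these 3 groups against control but for 1 library. That library, library 3 of 1 µM, is the 1 link between set A and the other sets, so the values of 10, 100 and 1000 µM against control with the set as a term rest on it. The comparisons of 1000 with 10 µM inside set B, and of 1000 with 100 µM inside sets B and C, need neither the control nor that library. Leaving out set C leaves 1 library of 100 µM, and its test then takes the spread from the other groups and assumes that the lone library varies like them. Of 7 hepatocyte markers, all were detected in every control library, and their summed level was 25820 to 33271 CPM (counts scaled to library size) in the control and 13856 to 16107 CPM at 1000 µM, where 6 fell and TTR rose. Of 8 markers of other cell types, only KRT19, VIL1 and CD68 passed the filter. The 7 of them in the table summed to 805 to 1070.3 CPM in the control and 583 to 618 CPM at 1000 µM. The part of these shifts in the results below was not tested. In bulk RNA, fewer cells of a type and less RNA per cell cannot be told apart.

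At 1000 µM, APOA5 fell to 13.1 from 78.1 CPM, APOA4 to 5.27 from 18.9 CPM, APOC3 to 25.4 from 55.7 CPM and APOH to 712 from 1595 CPM. APOM rose to 154 from 56.5 CPM, APOC1 to 112 from 34.2 CPM and APOB to 13514 from 8277 CPM. APOE was lower by a margin that rested on single libraries, and neither APOA1 nor APOA2 passed the test. By edgeR's quasi-likelihood test with Benjamini-Hochberg adjustment over all features (threshold 0.05), 8 of 10 members were called, 3 higher and 5 lower, where 57.6% of all features were called at this dose, 28.5% higher and 29.1% lower. Control and 1000 µM libraries did not overlap for 9 of 10 members, all but APOA2, beside 56.6% of all features. The median log2 fold change was -0.27 over the members and -0.0069 over all features. With the library set as a term 8 members were again called, beside 38% of all features, and 7 of them were the same genes with the same direction, with APOA1 in place of APOE. Without the 3 set C libraries 7 members were called, beside 60% of all features. Leaving out the set B libraries at 1, 100 and 1000 µM leaves 1 library of 1000 µM, of set C, so no count is given for that fit. The plot of levels by dose shows each library.

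**Figure D1:**
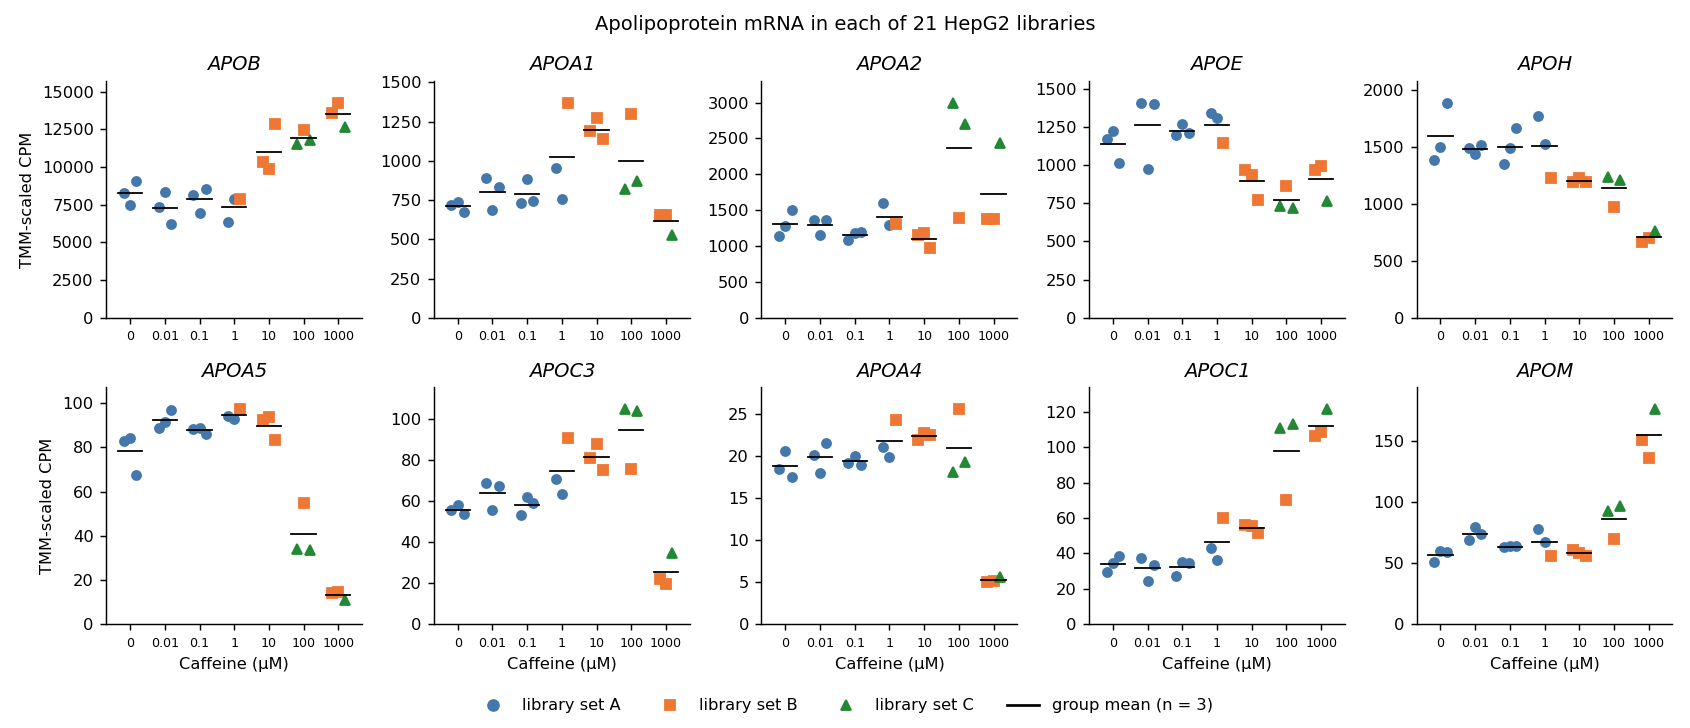
Level of each of the 10 members in CPM (vertical axes, a scale per gene) at each caffeine dose in µM (horizontal axes, 0 is the control), 1 point per library coloured by library set, with a bar at the mean of each group of 3. APOA5 and APOA4 drop at 1000 µM in libraries of sets B and C alike, whereas APOA2 at 100 µM splits by set, with 3000.1 and 2695 CPM in set C and 1390.3 CPM in set B.

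Scaling per kilobase of exon length allows a rough comparison between genes. The length joins the exons of all annotated transcripts, 10 for APOA2 and 2 for APOB. It can exceed the length of the mRNA that the cells make. The control means ran from 1384 CPM per kb for APOA2 to 12.8 for APOA4. APOH followed APOA2 at 1198, then came APOB at 558, APOE at 519 and APOA1 at 499 CPM per kb. The ranges of the 3 control libraries overlapped between APOA2 and APOH, between APOB and APOE and between APOE and APOA1, so those neighbours do not differ beyond their spread. A gap separated APOA1 from APOC3 at 64.3 CPM per kb, with APOA5 at 40.3, APOM at 34.0 and APOC1 at 27.8 below it. APOA5 overlapped APOM, and APOM overlapped APOC1. At 1000 µM APOB stood above APOH, at 911 against 535 CPM per kb, and APOM at 92.9 and APOC1 at 91.1 stood above APOC3 at 29.3, APOA5 at 6.77 and APOA4 at 3.58. As counts, the 10 members took 1.28% ± 0.0694 (SD, n = 3) of the control libraries and 1.80% ± 0.116 (SD, n = 3) of those at 1000 µM. These totals include mitochondrial counts, whose share differs between library sets. At 1 µM the members took 1.20% and 1.27% in set A and 1.42% in set B. At 1000 µM they took 1.84% and 1.88% in set B and 1.66% in set C. APOB made up 59.9% to 64.0% of the members' counts in the control and 72.4% to 78.0% at 1000 µM.

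**Figure D2:**
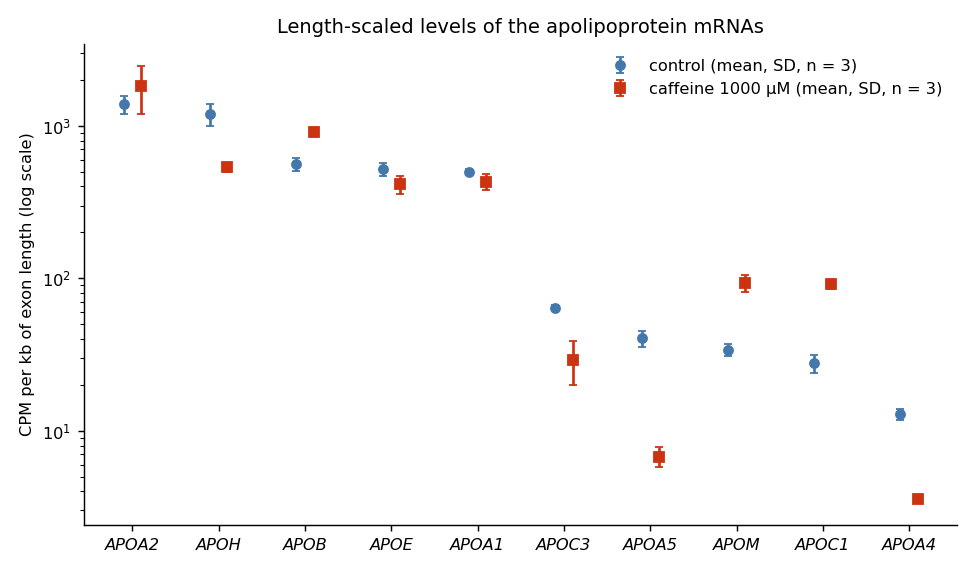
Level per kilobase of exon length (CPM per kb, logarithmic axis) of each member in the control and at 1000 µM, as the mean with its SD over 3 libraries. APOA2 is at the top and APOA4 at the bottom in both groups, and APOM and APOC1 lie below APOC3 in the control and above it at 1000 µM.

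To show what lies in front of some of the genes that fell, the 250 bases before the start of APOA5, APOA4 and APOH are printed beside those of APOA2, which did not pass the test at 1000 µM. They are from RefSeq on GRCh38.p14, all 4 on the minus strand and printed 5′ to 3′ along the gene, at chr11:116792421-116792670 for APOA5, chr11:116823305-116823554 for APOA4, chr17:66229416-66229665 for APOH and chr1:161223629-161223878 for APOA2. Capitals mark matches, on either strand, to any of 11 motifs. APOA5 has a second start in the table, and the window shown is the 1 of its 2 that holds no exon bases.
APOA5: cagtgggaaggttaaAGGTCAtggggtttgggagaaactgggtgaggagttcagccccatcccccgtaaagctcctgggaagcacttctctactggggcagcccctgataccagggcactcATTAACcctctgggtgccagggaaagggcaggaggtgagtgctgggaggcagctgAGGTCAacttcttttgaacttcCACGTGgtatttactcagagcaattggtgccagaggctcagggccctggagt
APOA4: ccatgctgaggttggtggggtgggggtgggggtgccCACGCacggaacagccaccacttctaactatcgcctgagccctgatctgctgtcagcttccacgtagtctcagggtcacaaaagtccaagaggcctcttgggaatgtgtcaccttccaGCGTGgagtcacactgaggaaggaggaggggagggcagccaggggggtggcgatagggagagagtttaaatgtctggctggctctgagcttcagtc
APOH: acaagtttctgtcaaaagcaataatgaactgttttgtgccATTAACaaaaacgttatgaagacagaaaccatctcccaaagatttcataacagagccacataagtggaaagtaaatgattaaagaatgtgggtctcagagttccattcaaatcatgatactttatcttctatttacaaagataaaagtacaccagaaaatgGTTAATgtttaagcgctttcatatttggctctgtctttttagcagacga
APOA2: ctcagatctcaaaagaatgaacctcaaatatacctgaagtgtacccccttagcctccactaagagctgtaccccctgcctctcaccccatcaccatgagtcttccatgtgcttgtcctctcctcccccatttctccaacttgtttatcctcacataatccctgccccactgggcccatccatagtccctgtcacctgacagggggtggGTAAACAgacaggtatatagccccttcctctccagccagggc
Both strands were searched for the HNF4 motif CAAAGTCCA, present in 0.325% of the 35116 RefSeq windows of this length, and for AGGTCA, a nuclear receptor motif present in 12.1%. The HNF1 motif GTTAAT was present in 6.23% of windows, the FOXA motif TGTTTAC in 2.98% and the C/EBP motif TTGCNNAA in 9.05%. The cAMP response element TGACGTCA was present in 1.65% and its core, TGACG, which lies inside it, in 21.2%. The SREBP motif TCACNCCAC was present in 0.883%, the E-box CACGTG in 6.34%, the xenobiotic response core GCGTG in 32.2% and the TATA box TATAAA in 10.7%.

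In the APOA5 window AGGTCA began 235 and 74 bases before the start, GTTAAT was matched on the other strand at 129 and CACGTG at 52. The window before the second APOA5 start, chr11:116791880-116792129, held AGGTCA at 156 and GCGTG on the other strand at 242 and 208. The APOH window held GTTAAT at 210 and at 49 bases before the start, once on each strand. GCGTG was found in the APOA4 window at 214 and 96 bases before the start. The APOA2 window held TGTTTAC on the other strand at 42 bases. None of the other 6 motifs was matched in the 4 windows shown. The APOH window was the poorest of the 4 in G and C, at 33.2%, against 56.4% for APOA5, 59.2% for APOA4, 52.8% for APOA2 and a median of 58% over all windows. The table held 7 of the 10 members, and the windows of APOC1, APOE and APOM, which hold 41 to 250 exon bases and are not shown, had no match to any of the 11 motifs. These matches describe the letters only.

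APOB (ENSG00000084674.14, chromosome 2, 21001429 to 21044073, minus strand, build GRCh38) encodes the backbone of secreted triglyceride-rich particles. Its control libraries stood at 8277, 7453 and 9102 CPM and those at 1000 µM at 13602, 14268 and 12671 CPM. Libraries at 10 µM read 10348.5, 9865 and 12836 CPM, and at 100 µM 11499, 12419 and 11809 CPM. All 9 libraries at 10 µM and above lay over all 12 at lower doses. APOB rose by a log2 fold change of 0.41 ± 0.123 (SE) at 10 µM (adjusted p = 0.031), 0.52 ± 0.123 at 100 µM (adjusted p = 0.00178) and 0.71 ± 0.123 at 1000 µM (edgeR, adjusted p = 6.7e-05). With the set as a term the values were 0.26, 0.45 and 0.59, of which the last was called (adjusted p = 0.037). The 10 µM call was also lost without library 1 or 2 of the control or library 1 or 3 of 10 µM, with adjusted p from 0.0587 to 0.162. Inside set B, 1000 µM exceeded 10 µM by 0.34 ± 0.132 (adjusted p = 0.0335), a call lost without either 1000 µM library or without library 1 or 2 of 10 µM. It was also lost when scaled by totals without mitochondrial features and without TMM, at 0.30 (edgeR, adjusted p = 0.0588). An overlapping gene on the opposite strand, AC010872.1, makes the APOB count uncertain, since use of strand in the counting is not given in the sources used here.

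High-density lipoprotein carries APOA1, its main protein and the activator of cholesterol esterification, APOA2, its second protein, and APOM, a lipocalin that binds sphingosine 1-phosphate. APOA1 (ENSG00000118137.9) read 721, 736 and 676 CPM in the control and 656, 658 and 528 CPM at 1000 µM. Set B libraries below the top doses were higher, at 1371 CPM in library 3 of 1 µM and 1189, 1270.3 and 1138 CPM at 10 µM. APOA1 did not pass the test at 1000 µM against control, with a log2 difference of -0.21 ± 0.184 (adjusted p = 0.338, edgeR), and with the set as a term it fell by 0.74 (adjusted p = 0.00399). Without the set B libraries at 1, 100 and 1000 µM, which leaves 1 library of 1000 µM that is assumed to vary like the other groups, it fell by 0.44 (adjusted p = 0.0233). Inside set B it fell by 0.87 ± 0.113 from 10 to 1000 µM (adjusted p = 1.92e-06).

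Its rise at 10 µM, by 0.75 (adjusted p = 0.0129, edgeR), went to 0.07 with the set as a term, and its rise at 100 µM, by 0.49 (adjusted p = 0.0369), to 0.09. The 100 µM call was also lost with no filter and with the replicate block. It was lost too without any 1 control library or without library 2 of that dose, the latter leaving 0.25 (adjusted p = 0.256). APOA1-AS, an antisense gene counted at 0.284 CPM in the control, overlaps APOA1, so the APOA1 count is uncertain without knowledge of strand.

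APOA2 (ENSG00000158874.11, chromosome 1, 161222292 to 161223631, minus strand) read 1143, 1279.8 and 1502 CPM in the control. At 100 µM it read 3000.1, 1390.3 and 2695 CPM and at 1000 µM 1384, 1377 and 2431 CPM. The 3 high libraries were those of set C, and the set B libraries at both doses lay inside the control range. APOA2 passed the test at 100 µM with a log2 fold change of 0.85 (adjusted p = 0.00693, edgeR), which was 0.31 with the set as a term and 0.09 (adjusted p = 0.668) without the 3 set C libraries, with 1 library of 100 µM left. At 1000 µM the difference was 0.40 ± 0.235 (adjusted p = 0.151), and 0.89 (adjusted p = 6.53e-05) without the set B libraries at 1, 100 and 1000 µM, which leaves 1 library of 1000 µM, of set C. Inside set B the rise from 10 to 1000 µM was 0.33 ± 0.116 (adjusted p = 0.0203), lost without either 1000 µM library or without library 3 of 10 µM.

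APOM (ENSG00000204444.11, chromosome 6, 31652416 to 31658210, plus strand) read 50.9, 59.7 and 58.9 CPM in the control, 60.3, 58.5 and 55.7 CPM at 10 µM, 92.5, 69.6 and 96.5 CPM at 100 µM and 151, 136 and 176 CPM at 1000 µM. Every library at 1000 µM lay above every other library. The log2 fold change was 0.61 at 100 µM (adjusted p = 0.000631, edgeR) and 1.45 ± 0.128 at 1000 µM (adjusted p = 1.3e-08), with 0.72 and 1.69 when the set was a term. Inside set B APOM rose by 1.30 ± 0.0848 from 10 to 1000 µM (adjusted p = 1.52e-10). At 100 µM its set C libraries were 1.36 times the set B library, and without the 3 set C libraries the difference was 0.31 (adjusted p = 0.0917), with 1 library of 100 µM left. BAG6 overlaps APOM on the opposite strand, so its count is uncertain without strand.

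The next 4 members act on triglyceride-rich particles. APOA5 helps lipoprotein lipase clear triglyceride, APOC3 slows lipolysis and remnant uptake, APOA4 is made mainly by the intestine in humans and is associated with fat absorption, and APOC1 can hinder receptor uptake and lipid transfer between particles. APOA5 (ENSG00000110243.11) read between 67.6 and 96.9 CPM in the 11 set A libraries and 92.6, 93.8 and 83.2 CPM at 10 µM. It read 34.1, 54.7 and 33.5 CPM at 100 µM, then 13.9, 14.6 and 10.9 CPM at 1000 µM. The control, 100 µM and 1000 µM libraries formed 3 levels with no overlap. APOA5 fell by 0.93 on the log2 scale at 100 µM (adjusted p = 3.48e-05, edgeR) and by 2.57 ± 0.155 at 1000 µM (adjusted p = 6.75e-11), with falls by 0.66 and by 2.46 when the set was a term. Inside set B it fell by 2.66 ± 0.0979 from 10 to 1000 µM (adjusted p = 6.62e-14).

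APOA4 (ENSG00000110244.7), the member with the lowest counts, read 18.5, 20.6 and 17.6 CPM in the control. It read 18.2, 25.6 and 19.3 CPM at 100 µM and 5.03, 5.14 and 5.64 CPM at 1000 µM, the least of which was 136 counts. AP006216.3 overlaps APOA4 on the opposite strand, so the APOA4 count is uncertain without strand. The fall was seen at 1000 µM, where all 3 libraries lay far below the other 18. It amounted to 1.85 ± 0.124 on the log2 scale against control, a drop by 2.03 with the set as a term and by 2.14 ± 0.103 from 10 µM inside set B (adjusted p = 3e-10 and 2e-12 for the first and last, edgeR). At 100 µM APOA4 was the 1 member not called, at 0.16 (adjusted p = 0.275), and at 0.44 (adjusted p = 0.0106) without the set C libraries, where 1 library of 100 µM was left.

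APOC3 (ENSG00000110245.12) rose and then fell. It read 55.4, 57.9 and 53.8 CPM in the control, 80.8, 87.6 and 75.1 CPM at 10 µM, 105, 75.4 and 104 CPM at 100 µM and 21.9, 19.7 and 34.5 CPM at 1000 µM. The 10 and 100 µM libraries lay above the control ones and the 1000 µM libraries below all others. APOC3 rose by 0.54 at 10 µM (adjusted p = 0.0415, edgeR) and by 0.76 at 100 µM on the log2 scale, and neither was called with the set as a term, where the values were 0.11 and -0.08 (adjusted p = 0.812). The 10 µM call was also lost without any 1 control or 10 µM library, with adjusted p from 0.0667 to 0.132. It was lost too without library 3 of 0.01 µM or library 2 or 3 of 0.1 µM, with adjusted p from 0.0503 to 0.0534 (edgeR). The next values are of APOC3 at the top dose. Its fall at 1000 µM was by 1.14 ± 0.177 against control (adjusted p = 2.24e-05), by 1.81 with the set as a term and by 1.96 ± 0.105 from 10 µM inside set B (adjusted p = 1e-11).

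APOC1 (ENSG00000130208.9) read 29.5, 34.4 and 38.6 CPM in the control and 56.1, 55.3 and 51.6 CPM at 10 µM. It read 111, 70.2 and 113 CPM at 100 µM and 106, 108.5 and 122 CPM at 1000 µM. The set C libraries at 100 µM were 1.59 times the set B library of that dose. APOC1 rose by a log2 fold change of 0.67 at 10 µM (adjusted p = 0.0286, edgeR), 1.52 at 100 µM (adjusted p = 5.9e-06) and 1.71 ± 0.197 at 1000 µM (adjusted p = 6.61e-07). The 10 µM call was lost without library 1 or 2 of the control or any 1 library of 10 µM, with adjusted p from 0.0578 to 0.100. With the set as a term the 10 µM value was 0.08 and not called, the 100 µM value 0.62 (adjusted p = 0.138) and the 1000 µM value 0.99 (adjusted p = 0.00639), close to the rise by 0.98 ± 0.143 from 10 to 1000 µM inside set B.

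APOE, a ligand through which remnant particles are taken up, and APOC1 lie side by side on chromosome 19. APOE (ENSG00000130203.10) read 1173, 1220.6 and 1016 CPM in the control, 971, 938 and 769.7 CPM at 10 µM, 732, 863 and 721 CPM at 100 µM and 968, 992 and 764 CPM at 1000 µM. Control and 1000 µM libraries did not overlap, though 1016 and 992 CPM lay close. APOE fell by 0.56 at 100 µM (adjusted p = 0.00237) and by 0.32 ± 0.135 at 1000 µM on the log2 scale (adjusted p = 0.0472, edgeR), with -0.15 and -0.02 (adjusted p = 0.948) when the set was a term. The 1000 µM call was lost without single libraries of several groups, for example -0.22 (adjusted p = 0.185) without library 3 of 1000 µM and -0.27 (adjusted p = 0.148) without library 2 of the control. Without the 3 set C libraries neither the 100 µM (-0.39, adjusted p = 0.0912) nor the 1000 µM difference of APOE passed, the former with 1 library of 100 µM left. From 10 to 1000 µM inside set B APOE differed by 0.13 (adjusted p = 0.377). The ratio of APOC1 to APOE counts, which no library scaling alters, was 0.0252 to 0.0380 in the control and 0.109 to 0.159 at 1000 µM. This ratio also differed by set at equal dose. At 1 µM it was 0.0323 and 0.0280 in set A and 0.0523 in set B. At 100 µM it was 0.0814 in set B and 0.151 and 0.157 in set C. The part of the set in the ratio was not tested. AC011481.3 overlaps both genes on the same strand, so reads could be split between them.

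APOH (ENSG00000091583.11, chromosome 17, 66212033 to 66256525, minus strand), beta-2-glycoprotein I, binds phospholipid and is the main target of antiphospholipid antibodies. It read 1391, 1502.5 and 1892 CPM in the control, 1191, 1232.5 and 1198 CPM at 10 µM, 1239, 976 and 1210.0 CPM at 100 µM and 668.5, 704 and 765 CPM at 1000 µM. The 1000 µM libraries lay below all others. It fell by 0.40 at 10 µM (adjusted p = 0.0415, edgeR), and by 0.48 at 100 µM (adjusted p = 0.00473). With the set as a term neither was called, at 0.03 and -0.22 (adjusted p = 0.468), and the 10 µM call was also lost without any 1 library of 10 µM or library 2 or 3 of the control, the last leaving -0.25 (adjusted p = 0.205). That call was lost too without any 1 library of 0.01 µM, without library 2 of 0.1 µM, with no filter and with the replicate block. At 1000 µM APOH fell by 1.16 ± 0.13 (adjusted p = 3.18e-07), by 0.81 with the set as a term (adjusted p = 0.00107) and by 0.81 ± 0.109 from 10 µM inside set B (adjusted p = 2.63e-06).

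**Figure D3:**
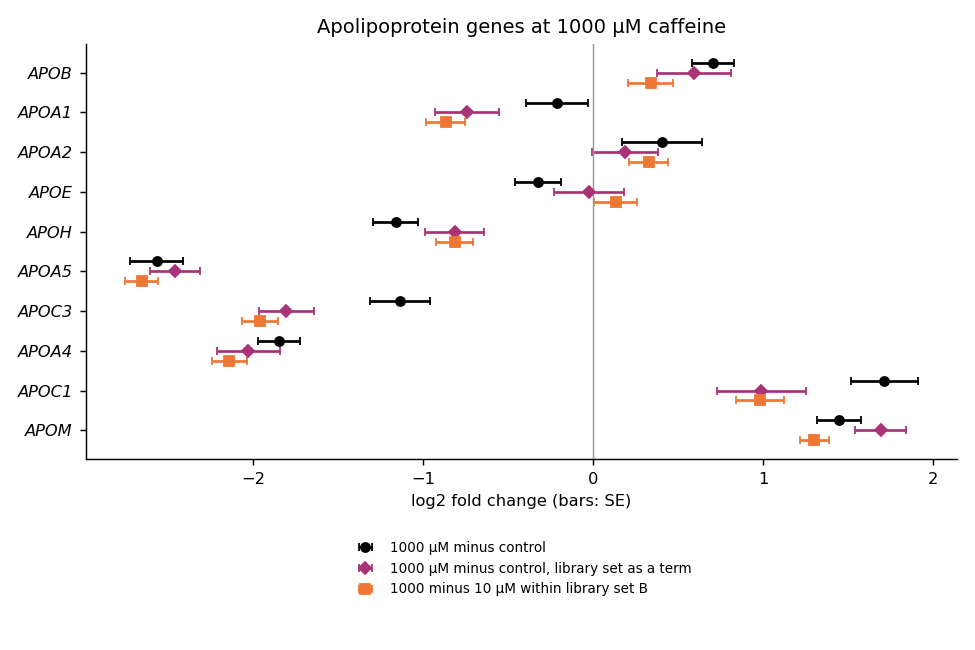
Log2 fold change of each member with its standard error, from 3 comparisons: 1000 µM against control, the same with the library set as a term, and 1000 against 10 µM inside set B. APOA4, APOA5, APOC3 and APOH lie below 0 and APOB, APOC1 and APOM above 0 in all 3, whereas APOE is at -0.32, -0.02 and 0.13.

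Inside set B, where 2 libraries of 1000 µM stood against 3 of 10 µM, 9 of 10 members passed, 4 higher and 5 lower, beside 60.1% of all features (29.7% higher, 30.4% lower). The member not called was APOE. The 1000 µM group was also compared with 100 µM without the control: 6 of 10 members were called, APOM higher and APOA1, APOA4, APOA5, APOC3 and APOH lower, beside 44% of all features (21.8% higher, 22.3% lower). The same 6 were called with the set as a term, beside 46.3%. Averaged over sets B and C the count was 7, beside 47.3%, the seventh being APOC1 at 0.37 (adjusted p = 0.0354, edgeR), a call lost without any 1 of 4 libraries. The interaction of that difference with the set compared arms of which 2, 100 µM in set B and 1000 µM in set C, held 1 library each, with the spread taken from the other groups, so it says little on dependence on the set: 0 of 10 members passed, beside 0.0947% of all features, and 1 had an unadjusted p under 0.05, APOA4 at -0.60 (adjusted p = 0.149).

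At 0.01, 0.1 and 1 µM no member passed the test, where 0.0279%, 0% and 0.106% of all features did. At an unadjusted p under 0.05 the counts were 1, 0 and 3, but the share of all features at that threshold was not computed, so they have no background. With the set as a term APOM alone passed at 0.01 µM, at 0.39 (adjusted p = 0.0251, edgeR), where 3.02% of features did: its 3 libraries read 69.0, 79.2 and 73.5 CPM, all above the control. That fit called none at 0.1 and 1 µM, beside 0.0223% and 0.629% of features. At 10 µM 5 members passed, 4 higher and 1 lower, beside 14.8% of all features (7.27% higher, 7.49% lower), and at 100 µM 9 passed, 6 higher and 3 lower, beside 46.6% (23.6% higher, 22.9% lower). With the set as a term the counts were 0, beside 0.0279%, and 2, beside 17.3%, the 2 being APOA5 and APOM. Library 3 of 1 µM, in set B, lay closer to the mean of the 10 µM libraries than to that of the other 1 µM libraries for 6 members (APOA1, APOA4, APOC1, APOC3, APOH and APOM) and the reverse for 4 (APOA2, APOA5, APOB and APOE). For APOC1 it read 59.9 CPM against 43.3 and 36.6 CPM in the first 2 libraries. Over the 6 doses jointly all 10 members differed from the control, beside 73.6% of features, and 9 did with the set as a term, all but APOE, beside 59.8%. For the slope on dose rank 7 were called, 4 higher and 3 lower, beside 55.3% of features (29.6% higher, 25.7% lower), and with the set as a term only APOM, at 0.28 per step (adjusted p = 0.0356), beside 4.27%.

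Ratios between members within a library do not depend on scaling, but they can differ by library set. APOA1 to APOB counts stood at 0.0742 to 0.0987 in the control and 0.0417 to 0.0482 at 1000 µM, with no overlap. At 100 µM they stood at 0.104 in set B and at 0.0716 and 0.0738 in set C. APOA5 to APOA4 counts were 3.85 to 4.46 in the control and 1.93 to 2.84 at 1000 µM, again with no overlap. At 100 µM they were already at 1.88, 2.13 and 1.73. Inside set B the ratio was 2.13 at 100 µM and 2.77 and 2.84 at 1000 µM.

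APOA5, APOA4, APOC3 and APOA1 are neighbours within 48584 bp on chromosome 11, in that order from 116789367 to 116837950 (GRCh38, GENCODE 29). From 10 to 1000 µM inside set B all 4 fell, by 2.66, 2.14, 1.96 and 0.87 on the log2 scale in that order along the chromosome. Among the genes flanking the cluster, ZPR1, starting 49.9 kb before APOA1, stood at -0.02 (adjusted p = 0.859, edgeR) in that comparison. It fell by 0.30 at 1000 µM against control (adjusted p = 0.00392). Distances here are between gene starts, not between gene bodies. Inside set B BUD13 fell by 0.97, and SIK3, a kinase gene whose start lies 260.5 kb beyond that of APOA1, and PAFAH1B2 rose by 0.47 and 0.44. TAGLN, 361 kb beyond, fell by 3.10, PCSK7 by 0.63 and SIDT2 by 0.27 (adjusted p = 0.047). Of these 7 flanking genes 4 fell, 2 rose and 1 did not pass, where 30.4% of all features fell and 29.7% rose. On chromosome 19, where APOE and APOC1 sit within 13596 bp, APOC1 rose by 0.98 inside set B and APOE stood at 0.13. Their neighbours BCL3, NECTIN2, CLPTM1 and RELB fell by 1.14, 0.79, 0.96 and 1.02, TOMM40 by 0.26 and APOC2, an activator of lipoprotein lipase, by 0.40.

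**Figure D4:**
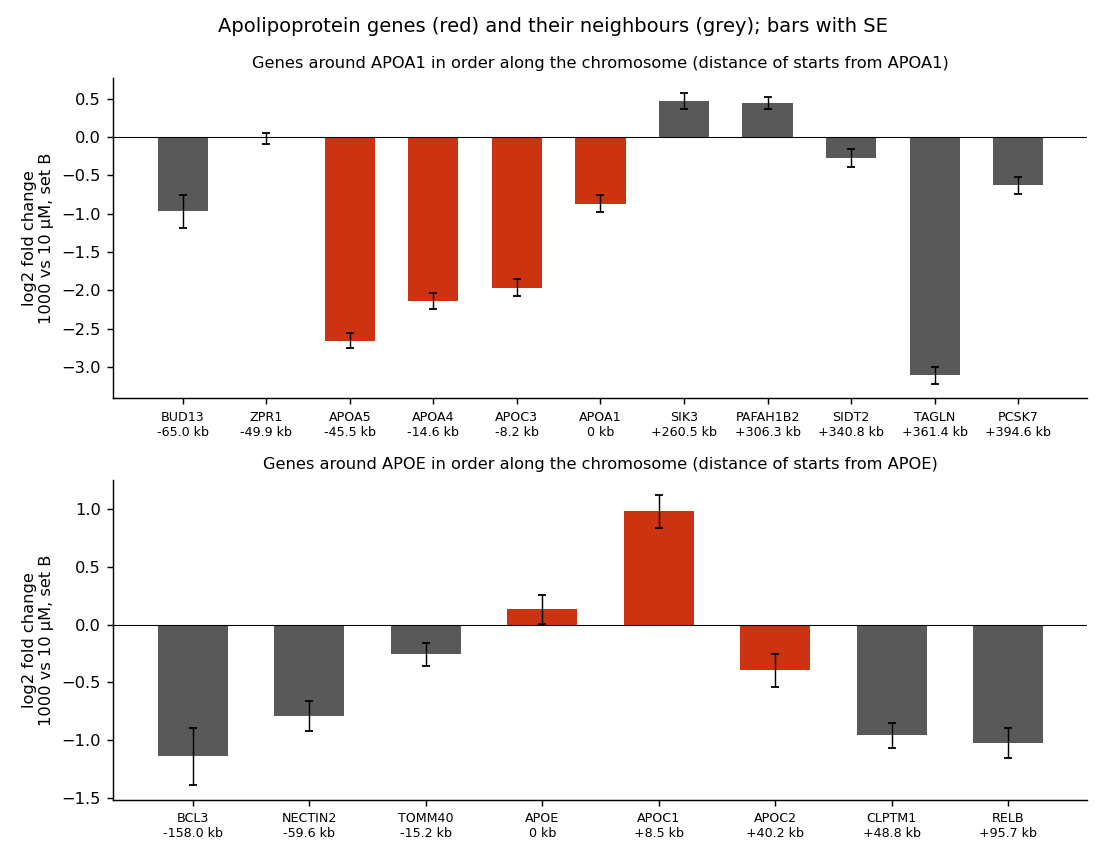
Bars give the log2 fold change from 10 to 1000 µM inside set B, with its SE, of genes in chromosomal order around APOA1 (upper panel) and APOE (lower panel), labelled with the distance of their starts in kb and evenly spaced, with apolipoprotein genes (APOC2 included) in red. In the upper panel the 4 members and BUD13, SIDT2, TAGLN and PCSK7 lie below 0, SIK3 and PAFAH1B2 above 0 and ZPR1 at -0.02. In the lower panel APOC1 is at 0.98, APOE at 0.13 and the other 6 genes below 0.

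The rest of the lipoprotein pathway was read from lists chosen with earlier results of these data in view. The counts below are to be read against the 57.6% of all features called at 1000 µM and the 38% called with the set as a term. At 1000 µM against control, 8 of the 11 tested other apolipoproteins and related genes were called, 3 higher and 5 lower, with APOL6 at 1.12, SAA4 at -1.03 and APOL2 at -0.62, and a median of -0.29. The set-term fit called 5, 1 higher and 4 lower. Of 15 genes of particle assembly and secretion 8 were called, 3 higher and 5 lower, among them SAR1B, which buds carriers from the endoplasmic reticulum, at 1.41, and the median was -0.15. Here 7 were called with the set as a term, 3 higher and 4 lower. MTTP, which loads lipid onto APOB, stood at -0.14 (adjusted p = 0.238, edgeR), and P4HB, the other subunit of its complex, fell by 1.01. Of 8 genes of high-density lipoprotein handling 6 were called, 1 higher and 5 lower, with a median of -0.57 and LIPC, hepatic lipase, at -3.01. The set-term fit called 4, each lower. SCARB1, the high-density lipoprotein receptor, was among those that fell, whereas ABCA1, which loads APOA1 with lipid, stood at 0.31 (adjusted p = 0.187).

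Of 11 receptors and their regulators 10 were called, 5 in each direction, with a median of -0.05, and 6 with the set as a term, 2 higher and 4 lower. SORL1, a sorting receptor, rose by 1.57. Of 6 genes controlling lipoprotein lipase 4 were called, 2 higher and 2 lower, with a median of -0.09, and 2 with the set as a term. Among them FURIN, a protease, rose by 1.62. Of 29 transcription factors 20 were called, 9 higher and 11 lower, and 10 with the set as a term, 6 higher and 4 lower: the coactivator PPARGC1A was among those that rose, and SREBF2, a regulator of sterol synthesis, fell by 1.08. HNF4A, a main activator of hepatic apolipoprotein genes, stood at 0.16 (adjusted p = 0.139). The transcription factors' median was 0.08. Of 12 neighbours of the 2 clusters 10 were called, 2 higher and 8 lower, and 8 with the set as a term.

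Features whose log2 CPM followed a member most closely over the 21 libraries are given as a description, since the libraries share sets and doses. The closest to APOA5 were ACOT1, a thioesterase of fatty acyl-CoA (r = 0.995), SLC25A29 (r = 0.988) and DPYSL4 (r = 0.987). For APOA4 they were MVK, mevalonate kinase (r = 0.989), and TM7SF2 (r = 0.986). For APOC1 the closest was MGST2 (r = 0.986), for APOB TBC1D8B (r = 0.975), for APOC3 B4GAT1 (r = 0.975), for APOH IFT25 (r = 0.966) and for APOM KCMF1 and MT2A (r = 0.963 each). APOE had the weakest closest match, LENG1 (r = 0.925). Among the members themselves, APOA4 with APOA5 (r = 0.898) and APOA4 with APOC3 (r = 0.887) moved together, and APOA5 with APOM (r = -0.927) and APOB with APOE (r = -0.846) in opposite directions.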

How the data were processed

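Human HepG2 libraries of 7 groups, 3 each, were read from the authors' deposited table of raw counts per feature. The submitters' processing notes name HISAT2, DESeq2 and GRCh38 without giving roles. The counting tool, annotation release, use of strand and read filters are not given in the sources used here. Another 21 per-sample columns were left unused here. Features were matched to symbols by Ensembl identifier, and positions and exon lengths came from GENCODE 29. Counts were filtered with filterByExpr, TMM-scaled. The test was the quasi-likelihood F-test of edgeR 4.0.16 under R 4.3.3, with 1 mean per group over all 21 libraries and Benjamini-Hochberg adjustment over 17951 features. CPM values use the TMM-scaled library size. Fold changes are log2 differences of the fit. Standard errors are of that difference, and correlations use a prior count of 2.

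Library sets came from clustering on the relative levels of mitochondrial mRNAs, centred within each library. Members and lists were chosen with earlier results of these data known. All members are named. From each list the 3 called genes with the smallest p at 1000 µM are eligible to be named, with HNF4A, MTTP, ABCA1 and PPARGC1A whether called or not. Some genes that this rule names are not reported here. Gene neighbours, markers and APOC2 were named after their values were seen. The procedure was tested on simulated data. Alternatives were DESeq2 1.42.0 (size factors, and its Wald test), limma 3.58.1 voom, other filters and scalings, other dose codings, the set as a term, a replicate block and 1 library left out. Libraries with the same replicate number did not deviate together, so the numbers were not used to pair cultures. Intervals and standard errors reflect the spread of these cultures of 1 line.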

Additional observations from a re-analysis of the deposited data

How the results depend on the processing

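The 1000 µM calls of APOA4, APOA5, APOB, APOC1, APOC3, APOH and APOM kept their direction and their side of the threshold in every alternative run. Over 2150 values of single members, 2041 kept their side of the threshold, 90 lost the call, 15 gained it and 4 that were called in either fit changed sign. Values called in neither fit that changed sign are among the 2041. A term for library set left, as members called, 1 at 0.01 µM, 0 at 10 µM, 2 at 100 µM and 1 for the slope. Of values called in either fit, those reversed under that term were APOH at 10 µM (0.0285), APOC3 at 100 µM (-0.0794) and APOE for the slope (0.0263), and with a linear dose the APOA1 slope was -0.00057. In an alternative chosen after seeing the data, without the set B libraries at 1, 100 and 1000 µM, 1 member was called at 0.01 µM (3.39% of all features) and 1 at 1 µM (0.999%). With 1 library left out, the count at 10 µM lay between 1 and 5, that at 100 µM between 8 and 9 and that at 1000 µM between 7 and 8. It was 6 to 8 for 1000 against 100 µM, 6 to 8 for the slope, 7 to 9 inside set B, 6 to 7 over sets B and C, 10 to 10 jointly, 0 to 0 at 0.01, 0.1 and 1 µM, and 0 to 1 for the interaction of the sets, the 1 being without control replicate 3. With the replicate block 4 members were called at 10 µM (12.7% of all features), 8 at 100 µM (45.1%), 8 at 1000 µM (56.6%), 6 over sets B and C (44.9%) and 9 inside set B (59.1%), and the calls lost were APOA1 at 100 µM, APOH at 10 µM and APOC1 over sets B and C. The cause of these changes was not tested. The lowest member count, 136 for APOA4, does not limit the calls at 1000 µM.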
